A study of Homo sapiens with 17 samples.

Results

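Ishikawa cells, a line derived from a human endometrial adenocarcinoma and used as a model of the endometrial epithelium, were analysed here for 9 genes of major histocompatibility complex (MHC) class I antigen presentation, out of 60662 genes in the count table. The genes were chosen by their role, with earlier results of these data known. They include the class I heavy chains HLA-B, HLA-C, HLA-E and HLA-F and the light chain B2M. The others are the peptide transporter subunits TAP1 and TAP2, the loading factor TAPBP (tapasin) and the immunoproteasome subunit PSMB8. Total RNA was sequenced from 17 cultures after 24 h in 6 groups, all from the same line and medium with charcoal-stripped serum. There were 3 untreated control cultures, 2 cultures given only a component that the labels call Nap (Nap vehicle), 3 cultures given Nap and ethanol (ethanol vehicle) and 3 cultures given Nap and progesterone (P4). Nap is not defined in the labels or in the study's text, the sources differ on the concentration of P4, and ethanol was named only for the ethanol vehicle, so an effect of P4 and any difference in ethanol cannot be told apart in the comparison of these groups. The other 6 cultures form 2 sets of 3. The set titled PSAT1 (recombinant human PSAT1 in its treatment field) carries PSAT1_P4 in its description and column name, and the set titled PSAT1_P4 carries PSAT1 there, so both are named by title and no condition was assigned to either. The labels call the cultures biological replicates and do not say whether they were grown on separate days, so the p-values measure the spread between these cultures.

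Class I molecules show peptides from inside the cell to CD8+ T cells and to natural killer cells. The proteasome cuts proteins into peptides, TAP1 and TAP2 pump the peptides into the endoplasmic reticulum, and tapasin together with calreticulin and PDIA3 loads them onto a heavy chain bound to beta-2 microglobulin, the product of B2M. HLA-B and HLA-C are classical, highly polymorphic heavy chains, and HLA-C is also a ligand of killer-cell receptors at the border of uterus and placenta. HLA-E presents leader peptides of other class I chains to the receptor NKG2A, and HLA-F is a non-classical chain of restricted expression. Interferon gamma raises TAP1, TAP2, PSMB8 and the heavy chains through factors that include IRF1 and NLRC5, and the promoters of class I genes share elements bound by the RFX, CREB and NF-Y factors, by interferon regulatory factors and by NF-kappaB.

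Library totals lay between 4999521 counts (ethanol vehicle replicate 1) and 19704493 counts (control replicate 2), and the mitochondrial ribosomal RNA MT-RNR2 took 20.2% to 27.1% of them. All 7 epithelial markers had at least 10 counts in every library, and their summed level was 972 to 1115 CPM (counts scaled to a common library total) in P4, 1004 to 1146 CPM in the set titled PSAT1 and 1156 to 1458 CPM elsewhere. None of 7 leukocyte markers reached 10 counts in every library, CD3E, CD14 and TYROBP had at most 3 counts in any, and the list summed to between 0.458 and 2.34 CPM. Of 5 fibroblast markers, 3 (collagen genes) had at least 10 counts in every library and DCN had at most 3, and the list summed to 127 to 179 CPM in P4, 129 to 159 CPM in the set titled PSAT1, 343 to 358 CPM in the ethanol vehicle and 417 to 645 CPM in the other groups. No endothelial marker of 4 reached 10 counts in every library, and PECAM1 and CDH5 had at most 3. The epithelial and collagen sums were thus lower in P4 and in the set titled PSAT1, and the collagen sum was also lower in the ethanol vehicle. Single markers did not move alike. Against the control, CDH1 (mean 315 against 252 CPM) and KRT7 (6.13 against 4.49 CPM) were higher in P4 and the other epithelial markers lower. COL1A2 was lower (84.7 against 385 CPM), while COL1A1 overlapped (22.7 against 25.5 CPM). The part of these differences in the results was not tested. HKDC1, a hexokinase gene with a strong difference in this series, was at 20.8 to 43.2 CPM in P4. It was at 26.8 to 39.3 CPM in the set titled PSAT1 and at 0.192 to 0.537 CPM in all other cultures. PGR, the progesterone receptor, was at 18.4 to 27.6 CPM in P4 and at 18.3 to 20.9 CPM in the set titled PSAT1. It was at 50.0 to 61.9 CPM in the ethanol vehicle and at 97.7 to 144 CPM in the remaining groups. The PSAT1 transcript was at 335 to 468 CPM in P4 and at 353 to 435 CPM in the set titled PSAT1. In all other cultures it was at 232 to 302 CPM.

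The 9 genes differed widely in level. Per kilobase of exon (RPKM, with the length of all annotated exons merged), B2M had a median of 13.5 over the 17 cultures (range 11.5 to 16.98), HLA-E of 7.73 (6.70 to 8.99), HLA-B of 3.44 (2.39 to 4.74), HLA-C of 2.75 (2.04 to 3.53), HLA-F of 1.47 (1.09 to 1.83) and TAPBP of 0.833 (0.592 to 1.40). B2M stood above HLA-E, HLA-E above HLA-B, HLA-C above HLA-F and TAPBP above TAP1 in 17 of 17 cultures with no overlap of the ranges. HLA-B stood above HLA-C, and HLA-F above TAPBP, in 16 of 17 cultures, and the ranges of these pairs overlapped. TAP1, TAP2 and PSMB8 followed, and their order rests on 0 to 3 reads a library. With the principal transcript as the length, the order of the 9 genes was the same, at a median of 48.3 RPKM for B2M and 8.84 RPKM for HLA-E. HLA-B and HLA-C are highly polymorphic, and how fully the reads of this line's alleles aligned to the reference genome was not tested.

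The transporter and the immunoproteasome subunit were at the limit of detection. TAP1 had 18 reads over all 17 libraries together, 0 to 3 in each, and was at 0 in 6 libraries. TAP2 had 3 reads in all and was at 0 in 14 libraries, and PSMB8 had no read in any of the 17. Out of 222589448 counts, this is 0.0809 CPM for TAP1 (exact Poisson 95% interval 0.0479 to 0.128) and 0.0135 CPM for TAP2 (0.00278 to 0.0394), and for PSMB8 the exact upper bound is 0.0166 CPM and 3 counts over all libraries would be 0.0135 CPM, where interval and floor cover counting error only. No library of any group held more than 3 reads of these genes, so no fold change is given for them. The genes whose exons overlap theirs, PSMB9 and PSMB8-AS1 on the opposite strand and AL669918.1 on the same strand, had no read in any library. Of other genes on the same arm of chromosome 6, 4 chosen after their values were seen were well covered: BRD2, a bromodomain gene, was at 226 to 599 CPM, RPS18, a ribosomal protein gene, at 299 to 449 CPM, the tubulin gene TUBB, nearer to HLA-E, at 373 to 979 CPM and DAXX, which codes for a histone chaperone, at 25.8 to 48.9 CPM. The plot of counts by gene shows the gap between the 6 well counted members and these 3.

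**Figure D1:**
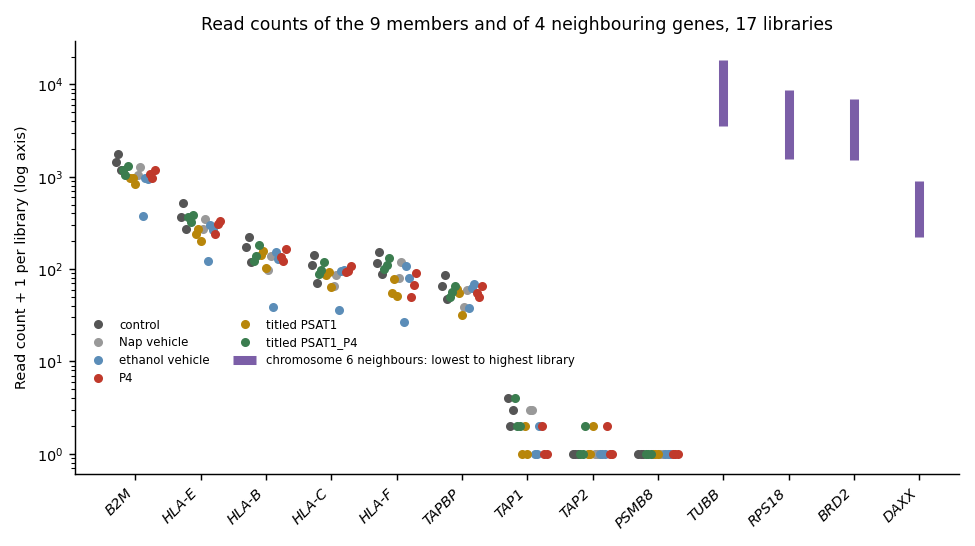
Read count plus 1 per library on a log axis for the 9 genes, ordered by RPKM, with 1 point per library colored by group. Bars run from the lowest to the highest library for 4 genes on the same arm of chromosome 6, chosen after their values were seen. TAP1, TAP2 and PSMB8 have 0 to 3 reads in each of 17 libraries, while B2M has 377 to 1757 and DAXX 219 to 902.

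Promoters of 5 of the genes are shown because class I and transporter genes are known to share regulatory elements. HLA-B, HLA-C and B2M were well counted, and TAP1 and PSMB8 were at the limit of detection. They come from RefSeq on GRCh38.p14, run from 250 bases before to 50 bases after the annotated start, and are written 5′ to 3′ along the gene. Capitals mark matches, on either strand, to CCAAT (the box bound by NF-Y), TGACG (the core bound by CREB), the core of the interferon-stimulated response element (ISRE, GAAA, 2 bases of any kind, GAAA) and the NF-kappaB consensus, and where matches overlap the capitals run together.
HLA-B promoter, chr6:31357130-31357429, minus strand: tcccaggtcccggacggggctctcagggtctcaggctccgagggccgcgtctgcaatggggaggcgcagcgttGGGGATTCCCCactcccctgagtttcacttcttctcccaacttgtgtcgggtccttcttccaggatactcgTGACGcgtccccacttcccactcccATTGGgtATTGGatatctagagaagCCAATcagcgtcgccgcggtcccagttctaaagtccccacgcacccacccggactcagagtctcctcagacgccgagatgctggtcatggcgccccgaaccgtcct
HLA-C promoter, chr6:31272043-31272342, minus strand: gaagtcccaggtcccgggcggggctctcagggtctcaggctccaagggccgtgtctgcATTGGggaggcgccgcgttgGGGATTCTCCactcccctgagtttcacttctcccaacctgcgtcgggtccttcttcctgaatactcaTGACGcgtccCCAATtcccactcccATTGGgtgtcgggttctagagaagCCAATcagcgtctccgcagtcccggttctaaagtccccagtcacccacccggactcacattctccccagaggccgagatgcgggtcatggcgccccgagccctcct
B2M promoter, chr15:44711267-44711566, plus strand: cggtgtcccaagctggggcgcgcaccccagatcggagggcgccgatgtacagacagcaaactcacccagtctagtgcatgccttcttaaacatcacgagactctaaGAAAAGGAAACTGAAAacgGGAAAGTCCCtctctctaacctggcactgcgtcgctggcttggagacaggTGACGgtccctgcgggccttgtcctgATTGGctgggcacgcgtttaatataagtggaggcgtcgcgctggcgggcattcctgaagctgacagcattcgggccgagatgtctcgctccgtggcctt
TAP1 promoter, chr6:32853655-32853954, minus strand: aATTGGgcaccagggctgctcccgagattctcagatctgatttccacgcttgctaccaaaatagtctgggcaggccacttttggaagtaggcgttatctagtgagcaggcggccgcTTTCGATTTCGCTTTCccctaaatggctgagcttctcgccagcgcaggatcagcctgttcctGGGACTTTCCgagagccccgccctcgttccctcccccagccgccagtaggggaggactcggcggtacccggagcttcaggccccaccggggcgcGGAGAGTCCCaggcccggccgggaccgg
PSMB8 promoter, chr6:32843998-32844297, minus strand: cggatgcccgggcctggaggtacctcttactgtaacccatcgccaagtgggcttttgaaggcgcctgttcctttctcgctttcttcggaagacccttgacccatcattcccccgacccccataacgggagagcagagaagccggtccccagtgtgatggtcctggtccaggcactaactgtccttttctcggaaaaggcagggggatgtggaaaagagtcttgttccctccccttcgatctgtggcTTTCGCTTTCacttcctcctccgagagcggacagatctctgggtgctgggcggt

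Windows were found for 8 of the 9 genes (not for HLA-E), 10 in all since TAP1 and PSMB8 have 2 starts each. For TAP1 and PSMB8 the window shown is the one with an ISRE core. The ISRE core stood in 6 of the 10 windows (HLA-F, B2M, TAP1, TAP2, TAPBP and PSMB8, 1 window each) and in 3.57% of 35116 promoters of the same length. The NF-kappaB consensus stood in 5 windows and in 11.3% of all promoters, CCAAT in 5 and 34.6%, and TGACG in 5 and 24.6%. The consensus of the progesterone response element, a site type shared with other steroid receptors, was in none of the 10 windows and in 0.390% of all promoters. In these windows HLA-B had 3 CCAAT matches and HLA-C had 4, with 1 TGACG match each, whereas the PSMB8 window shown held 1 ISRE core and none of the other motifs. The other PSMB8 window held 1 TGACG match and no ISRE core. These are matches of letters, not sites shown to be bound.

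The called differences of the members depended on how libraries were scaled. The TMM factors lay between 0.898 and 0.965 in P4 and between 0.913 and 0.920 in the set titled PSAT1, below the 0.977 to 1.10 of the other 11 libraries, so that the factors raise the CPM of these 2 groups relative to the others. With library totals and no factors, an alternative chosen after seeing the data, none of the 7 called differences of members passed in edgeR's test. For B2M the log2 fold change was then 0.19 in P4 against the ethanol vehicle (adjusted p = 0.109) and -0.08 between the sets titled PSAT1_P4 and PSAT1 (0.332). For HLA-C it was 0.43 in P4 against the Nap vehicle (0.0651) and 0.31 against the control (0.135). For HLA-B it was 0.32 in P4 against the Nap vehicle (0.148), 0.23 in the set titled PSAT1 against the control (0.178) and -0.27 between the sets (0.132). The median of all genes tested moved with the scaling as well, from -0.01 to -0.13 in P4 against the ethanol vehicle, to -0.18 against the Nap vehicle, from -0.02 to -0.14 against the control, from -0.01 to -0.17 in the set titled PSAT1 and from 0.02 to 0.22 between the sets. Relative to that median, B2M in P4 against the ethanol vehicle was at 0.32 with both scalings, HLA-C against the Nap vehicle at 0.61 with both, and HLA-B between the sets at -0.50 with TMM and -0.49 without factors. The values that follow are those with TMM, and they are changes relative to the bulk of genes.

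P4 against the ethanol vehicle compares progesterone with the vehicle control, and any difference in ethanol cannot be told apart from progesterone in it. B2M was the 1 gene of the 6 tested that passed the test, at a background of 53.0% of all 16540 genes tested, 4397 of them higher and 4377 lower (3302 and 5504 without scaling factors), while TAP1, TAP2 and PSMB8 were below the filter on low counts. B2M was at 103, 82.3 and 90.5 CPM in P4 and at 72.3, 71.8 and 76.3 CPM in the ethanol vehicle. The groups did not overlap with TMM but did with library totals (73.8 to 99.5 against 72.6 to 76.9 CPM), and the P4 cultures spread more widely (92.0 ± 10.6 against 73.5 ± 2.50 CPM, mean ± SD, n = 3 each). The log2 fold change of B2M was 0.31 (95% interval 0.12 to 0.50, adjusted p = 0.0098 in edgeR's quasi-likelihood test), a 1.24-fold higher level. The mean of B2M was 85.4 CPM in the control and 83.4 CPM in the Nap vehicle, between the means of P4 and the ethanol vehicle. In bulk cultures a larger share of cells of 1 kind and more RNA per cell cannot be told apart. The call was lost without scaling factors, with upper-quartile normalization (log2 fold change 0.22, adjusted p = 0.0551) and without ethanol vehicle replicate 2 (0.29, adjusted p = 0.0501), and the adjusted p lay between 0.000489 and 0.109 over 14 alternatives.

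The heavy chains and tapasin did not pass the test in that comparison, in the fit reported or in any of 14 alternatives. HLA-C was at 8.85, 8.17 and 8.25 CPM in P4 and at 6.71, 6.94 and 7.89 CPM in the ethanol vehicle. These groups overlapped with library totals (7.33 to 8.53 against 7.001 to 7.95 CPM) and not with TMM, and the log2 fold change of 0.20 had an interval of -0.11 to 0.51 (adjusted p = 0.254 in edgeR's test). HLA-E, the heavy chain with the highest RPKM of the 4, was at 23.1, 26.6 and 25.1 CPM against 23.0, 22.3 and 21.5 CPM, without overlap with TMM but with overlap with library totals (22.2 to 23.8 against 21.6 to 24.0 CPM), at a log2 fold change of 0.16 (-0.05 to 0.36, adjusted p = 0.185). HLA-B was at 12.9, 10.5 and 12.7 CPM against 7.28, 11.2 and 10.2 CPM, with overlap, at 0.26 on the log2 scale (-0.08 to 0.60, adjusted p = 0.184). HLA-F was at 4.71, 5.67 and 6.87 CPM against 4.98, 7.82 and 6.36 CPM, and TAPBP at 5.19, 4.21 and 4.96 CPM against 7.09, 4.57 and 5.48 CPM. Both overlapped, and both had a log2 fold change of -0.21 (HLA-F -0.63 to 0.22, TAPBP -0.63 to 0.21). The median log2 fold change of the 6 genes was 0.18, beside -0.01 over all genes tested.

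**Figure D2:**
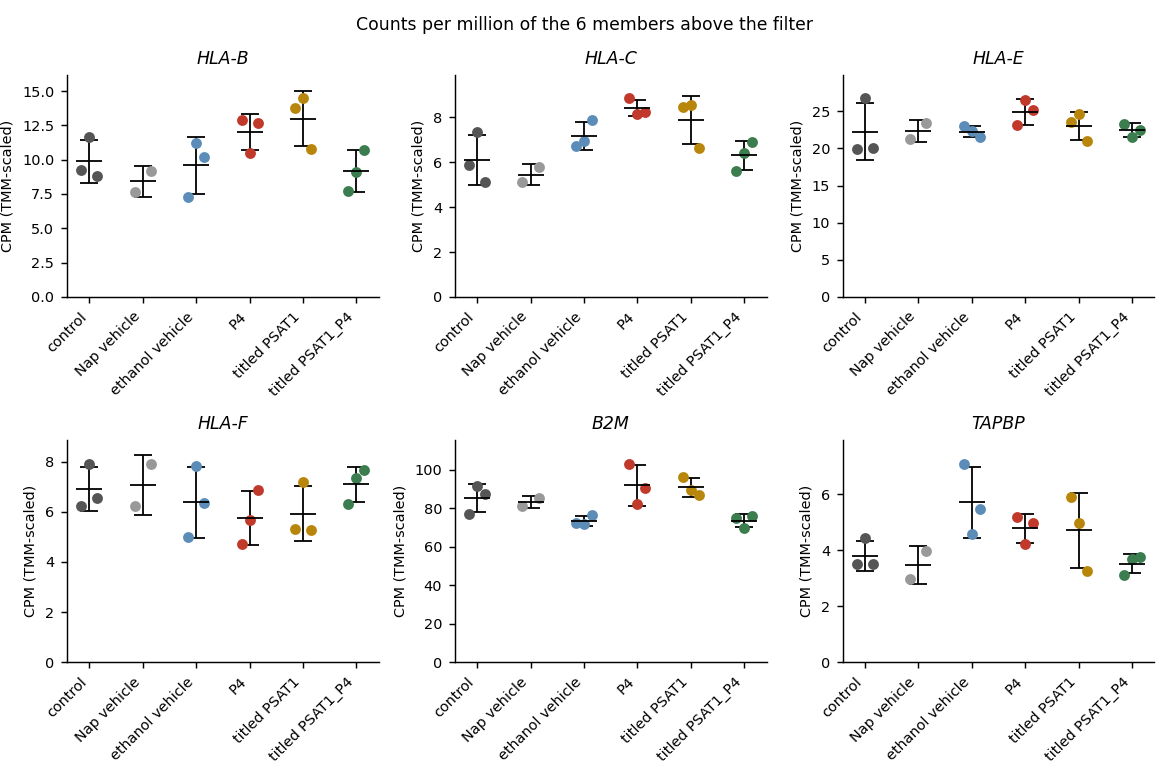
TMM-scaled CPM of the 6 genes above the filter, with 1 point per culture and the mean ± SD of each group (n = 3, Nap vehicle n = 2), and axes from 0. B2M lies at 82.3 to 103 CPM in P4 and at 71.8 to 76.3 CPM in the ethanol vehicle, and HLA-C lies above 8 CPM in each P4 culture.

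Against the Nap vehicle, whose label names the same component without progesterone, HLA-B and HLA-C were the 2 genes of 6 that passed, both higher in P4, where 49.7% of 16987 genes passed (4214 higher and 4232 lower, or 3054 and 5663 without scaling factors). Ethanol is not named for P4 in the labels. Any ethanol given with P4 cannot be told apart from progesterone, here or against the control. HLA-B was at 7.63 and 9.20 CPM and HLA-C at 5.12 and 5.78 CPM in the Nap vehicle, below each P4 culture. With library totals this held for HLA-C, while HLA-B overlapped (9.41 to 12.4 CPM in P4 against 8.12 to 9.71). The log2 fold change was 0.48 for HLA-B (0.12 to 0.84, adjusted p = 0.0313 in edgeR's test) and 0.60 for HLA-C (0.21 to 0.98, adjusted p = 0.0148), 1.39-fold and 1.51-fold higher levels. B2M, at 81.1 and 85.6 CPM in the Nap vehicle, overlapped with P4 at 0.11 on the log2 scale (-0.12 to 0.35, adjusted p = 0.399). HLA-E differed by 0.13 (-0.13 to 0.38), HLA-F by -0.32 (-0.78 to 0.14) and TAPBP by 0.42 (-0.08 to 0.93), and none of them passed. The group has 2 cultures, and the calls depended on them: without Nap vehicle replicate 1 the adjusted p was 0.222 for HLA-B and 0.110 for HLA-C, without Nap vehicle replicate 2 it was 0.0546 for HLA-B, and without P4 replicate 3 it was 0.112 for HLA-B. DESeq2 called neither (0.0813 and 0.0566), and upper-quartile normalization did not call HLA-B (0.0710). The adjusted p lay between 0.0093 and 0.222 for HLA-B and between 0.0042 and 0.110 for HLA-C over 13 alternatives.

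Against the untreated control, HLA-C was the 1 gene of 6 that passed, at a background of 54.8% of 16620 genes (4461 higher and 4651 lower, or 3385 and 5653 without scaling factors). It was at 5.87, 7.33 and 5.13 CPM in the control, below each P4 culture with either scaling, and its log2 fold change was 0.43 (0.07 to 0.79, adjusted p = 0.0416 in edgeR's test), a 1.35-fold higher level. The call held in 5 of 14 alternatives, at adjusted p between 0.0131 and 0.148. It was lost without scaling factors, in DESeq2 (0.0902), with upper-quartile normalization (0.0923), with no filter (0.0850), without control replicate 1 (0.115) or 3 (0.148), and without P4 replicate 1 (0.0641), 2 (0.0501) or 3 (0.0852). HLA-B was at 9.22, 11.7 and 8.78 CPM in the control, which overlapped with P4, and differed by 0.25 on the log2 scale (-0.07 to 0.57, adjusted p = 0.169). B2M was at 77.1, 91.4 and 87.6 CPM in the control, and its difference from P4 was 0.09 (-0.13 to 0.30, adjusted p = 0.503). The 3 comparisons share the P4 cultures, and HLA-C had values of 0.20, 0.60 and 0.43, and B2M of 0.31, 0.11 and 0.09, against the ethanol vehicle, the Nap vehicle and the control.

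None of the 6 genes passed the test in either vehicle against the control. In the ethanol vehicle, where 22.6% of 16673 genes passed, B2M was below each control culture and differed by -0.21 on the log2 scale (-0.38 to -0.05, adjusted p = 0.0525 in edgeR's test), and TAPBP was above each control culture (3.50, 4.42 and 3.50 CPM) and differed by 0.52 (0.11 to 0.93, adjusted p = 0.0629). Both separations held with library totals too. Among other alternatives, B2M passed without control replicate 1 (adjusted p = 0.0179), with no filter (0.0361) and with at least 10 counts in every sample (0.0467), and TAPBP passed without control replicate 2 (0.0241). HLA-B was level in these groups, at 0.00 on the log2 scale (-0.30 to 0.30), and HLA-C differed by 0.23 (-0.12 to 0.58). In the Nap vehicle 0.0% of 17166 genes passed, with 217 at an unadjusted p under 0.05 and 1 called by DESeq2. There the members lay between -0.23 for HLA-B (-0.58 to 0.13) and 0.04 for HLA-F (-0.34 to 0.43), and the interval for B2M was -0.23 to 0.17.

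**Figure D3:**
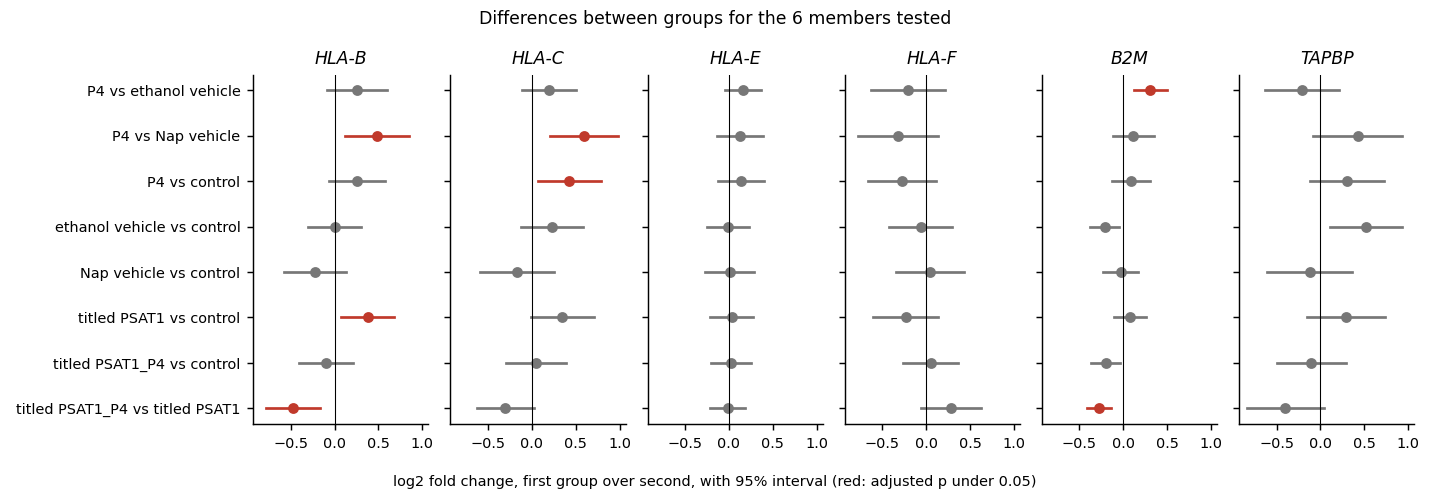
log2 fold change of the 6 genes tested (points) with 95% intervals (lines) in 8 comparisons, the first group over the second, red where the adjusted p was under 0.05 in edgeR's quasi-likelihood test. For P4, B2M is red against the ethanol vehicle (0.31), HLA-B (0.48) and HLA-C (0.60) against the Nap vehicle, and HLA-C (0.43) against the control. HLA-B is red in the set titled PSAT1 against the control (0.38), and HLA-B (-0.48) and B2M (-0.28) between the sets titled PSAT1_P4 and PSAT1.

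In the set titled PSAT1, HLA-B passed against the control, at 13.8, 14.5 and 10.7 CPM and a log2 fold change of 0.38 (0.07 to 0.68, adjusted p = 0.0289 in edgeR's test), 1 of 6 genes where 60.2% of 16209 passed (4869 higher and 4888 lower, or 3572 and 6280 without scaling factors). The replicate at 10.7 CPM lay below the highest control, so the groups overlapped. The call was lost without scaling factors, in DESeq2 (0.0850), with upper-quartile normalization (0.115), with no filter (0.0502), without control replicate 1 (0.104) or 3 (0.121) and without replicate 1 (0.0854) or 2 (0.148) of the set. HLA-C, at 8.45, 8.57 and 6.64 CPM, differed by 0.35 (-0.01 to 0.70, adjusted p = 0.0902), and passed with all samples in 1 fit (0.0492), without control replicate 2 (0.0214) and without replicate 3 of the set (0.0416). In the set titled PSAT1_P4 0.0% of 17214 genes passed against the control (1004 at an unadjusted p under 0.05, and 0 called by DESeq2). The 6 members lay between -0.20 for B2M (-0.37 to -0.03) and 0.05 for HLA-F (-0.26 to 0.37). B2M was at 74.8, 69.9 and 76.2 CPM in that set (adjusted p = 0.836 in edgeR's test), below each control with TMM but not with library totals (76.9 to 82.1 against 81.3 to 92.6 CPM).

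Set against each other, the sets differed in HLA-B and B2M, both lower in the set titled PSAT1_P4, 2 of 6 genes at a background of 62.3% of 16586 (5248 higher and 5091 lower, or 7199 and 3484 without scaling factors). HLA-B was at 7.72, 9.08 and 10.73 CPM there and at 10.75 CPM or more in the other set, a gap that closed with CPM from library totals alone (up to 11.6 against 9.79 CPM or more), and differed by -0.48 on the log2 scale (-0.79 to -0.17, adjusted p = 0.0087 in edgeR's test). B2M was at 96.1, 89.7 and 86.7 CPM in the set titled PSAT1, without overlap with TMM but with overlap with library totals (76.9 to 82.1 against 79.0 to 87.7 CPM), and differed by -0.28 (-0.42 to -0.14, adjusted p = 0.0015). The call for B2M held in 13 of 14 alternatives and that for HLA-B in 12. Both were lost without scaling factors, and HLA-B had an adjusted p of 0.0537 without replicate 2 of the set titled PSAT1. HLA-C (-0.30, -0.63 to 0.03) and TAPBP (-0.40, -0.84 to 0.04) did not pass, but did so without replicate 3 of that set (adjusted p = 0.0384 and 0.0146). HLA-E differed by -0.01 (-0.21 to 0.19) and HLA-F by 0.28 (-0.06 to 0.63), and neither passed, although HLA-F did without scaling factors (0.49, adjusted p = 0.0202).

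Within groups, the members did not always rank the cultures alike. With TMM, control replicate 2 had the highest value of its group for each of the 6 genes (HLA-E, for example, at 26.7 CPM against 19.9 and 20.1), but with library totals B2M was highest in replicate 3 (92.6 against 89.2 CPM). Replicate 3 of the set titled PSAT1 had the lowest value of its group for each with either scaling (TAPBP at 3.27 CPM against 5.90 and 4.98 with TMM). With either scaling, P4 replicate 1 was highest for HLA-B, HLA-C, B2M and TAPBP and lowest for HLA-E and HLA-F. Control replicate 2 also had the highest MT-RNR2 share of its group (27.1%, against 21.8% and 20.2%), and the part of that share in its values was not tested. Across the 17 cultures, which share groups and a common scaling, the mean standardised log2 CPM of the 6 genes correlated at 0.88 with HLA-B, 0.87 with HLA-C, 0.76 with HLA-E, 0.61 with TAPBP, 0.61 with B2M and 0.09 with HLA-F, each of them part of that mean. Among 18226 other genes the profile was most like CCHCR1 (Pearson's r = 0.91, a centriolar protein gene located in the MHC region), PEPD (0.90, prolidase), HSF4 (0.87, a heat shock factor), LAMB2 (0.86, a laminin chain) and PLD3 (0.85, a phospholipase D family member). With the 6 group means in place of the cultures, the values of these 5 genes were 0.96, 0.94, 0.98, 0.96 and 0.85, but their ranks were 734, 1854, 169, 1056 and 4377, so none of them was among the nearest there. They are descriptions, given as the nearest of many genes.

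The other genes of the pathway, in lists chosen by function, were compared between P4 and the ethanol vehicle with the same fit, in which 53.0% of all genes passed. Of 7 class I-like heavy chains, 6 were tested, 0 passed as higher and 1 as lower, at a median log2 fold change of -0.28. MR1, which presents vitamin metabolites to innate-like T cells, fell to 2.33 ± 1.03 CPM from 4.18 ± 0.604 (-0.91, -1.51 to -0.30, adjusted p = 0.0159 in edgeR's test). Of 6 genes for peptide trimming and loading, 4 were tested and 2 rose: CANX (calnexin), the chaperone of new heavy chains, by 0.32 (0.17 to 0.48, adjusted p = 0.0020), and PDIA3, the disulfide isomerase of the loading complex, by 0.18 (0.03 to 0.33, adjusted p = 0.0455), a call lost with upper-quartile normalization (0.252) and without scaling factors (0.442). ERAP1, which trims peptides, differed by 0.14 (-0.13 to 0.40), while ERAP2 had 1 read and the tapasin-related TAPBPL none over all 17 libraries.

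In the list of the immunoproteasome, its activators and the constitutive counterparts, 6 of 8 genes were tested, 5 fell and 0 rose, at a median of -0.41 beside -0.01 over all genes tested. None of the 5 is an immunoproteasome subunit: PSMB9 had no read in any library and PSMB10 had 58 in all, at 0 to 8 each, so neither was tested. The genes that fell were the activator subunits PSME1 (-0.64, -0.86 to -0.41) and PSME3 (-0.52, -0.66 to -0.37) and the constitutive catalytic subunits PSMB7 (-0.47, -0.65 to -0.29), PSMB5 (-0.35, -0.50 to -0.20) and PSMB6 (-0.21, -0.37 to -0.05). PSMB5, whose place PSMB8 takes in the immunoproteasome, was at 72.5 ± 1.498 CPM in P4, at 91.1 ± 4.58 CPM in the ethanol vehicle and at 111 ± 0.0527 CPM in the control. In the ethanol vehicle against the control, where 22.6% of all genes passed, 3 of these 6 genes fell as well. Without scaling factors 6 of 6 fell in P4 against the ethanol vehicle, and in DESeq2 4 did, PSMB6 not passing (adjusted p = 0.162).

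Of 18 regulators of class I genes, 17 were tested, 9 rose and 3 fell in P4 against the ethanol vehicle, at a median of 0.31. Those that rose included JAK1, a kinase of interferon receptors, from 16.2 ± 2.22 to 39.1 ± 7.79 CPM (1.26 on the log2 scale, 0.93 to 1.58), IFNGR1, a chain of the interferon gamma receptor, from 20.7 ± 0.437 to 39.2 ± 4.27 CPM (0.91, 0.70 to 1.13), and RFXANK, a subunit of the RFX complex, from 40.4 ± 0.609 to 69.2 ± 2.59 CPM (0.76, 0.60 to 0.92). RFX5, the DNA-binding subunit of the same complex, fell from 78.1 ± 4.73 to 34.6 ± 10.3 CPM (-1.20, -1.58 to -0.82, adjusted p = 0.000231 in edgeR's test). IRF1 rose by 0.61 (0.13 to 1.08, adjusted p = 0.0332 in edgeR's test), but did not pass in DESeq2 (0.0505), with upper-quartile normalization (0.0579) or without scaling factors (0.0664). Without factors 6 regulators rose and 4 fell. NLRC5, the class I transactivator, had 12 reads over all 17 libraries and none in 12 of them, and was not tested. Against the control, 9 of the 17 regulators rose and 3 fell in the set titled PSAT1 (60.2% of all genes passed), and none passed in the set titled PSAT1_P4 (0.0% of all genes).

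In the other comparisons the lists gave these counts, beside the share of all genes that passed. In P4 against the Nap vehicle (49.7%), all 6 proteasome genes tested fell, 8 regulators rose and 2 fell, 2 class I-like chains fell and 0 loading genes passed. In P4 against the control (54.8%), all 6 proteasome genes fell, 9 regulators rose and 1 fell, and 1 class I-like chain rose and 1 fell (0 and 2 without scaling factors). In the set titled PSAT1 against the control (60.2%), all 6 proteasome genes and 3 class I-like chains fell. The fall of the 6 proteasome genes in these 3 comparisons was also called in DESeq2, with upper-quartile normalization and without scaling factors. In the ethanol vehicle against the control (22.6%), 3 regulators rose, 1 fell and 1 loading gene fell (without scaling factors 1 regulator rose, 1 fell and 0 loading genes passed). In the Nap vehicle and in the set titled PSAT1_P4 against the control (0.0% each), no gene of the 4 lists passed. In the set titled PSAT1_P4 against the set titled PSAT1 (62.3%), 6 proteasome genes and 3 class I-like chains were higher, 2 loading genes were lower, and 1 regulator was higher and 9 were lower. Without scaling factors, 1 loading gene was higher and 0 were lower there, and 3 regulators were higher and 7 lower.

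**Figure D4:**
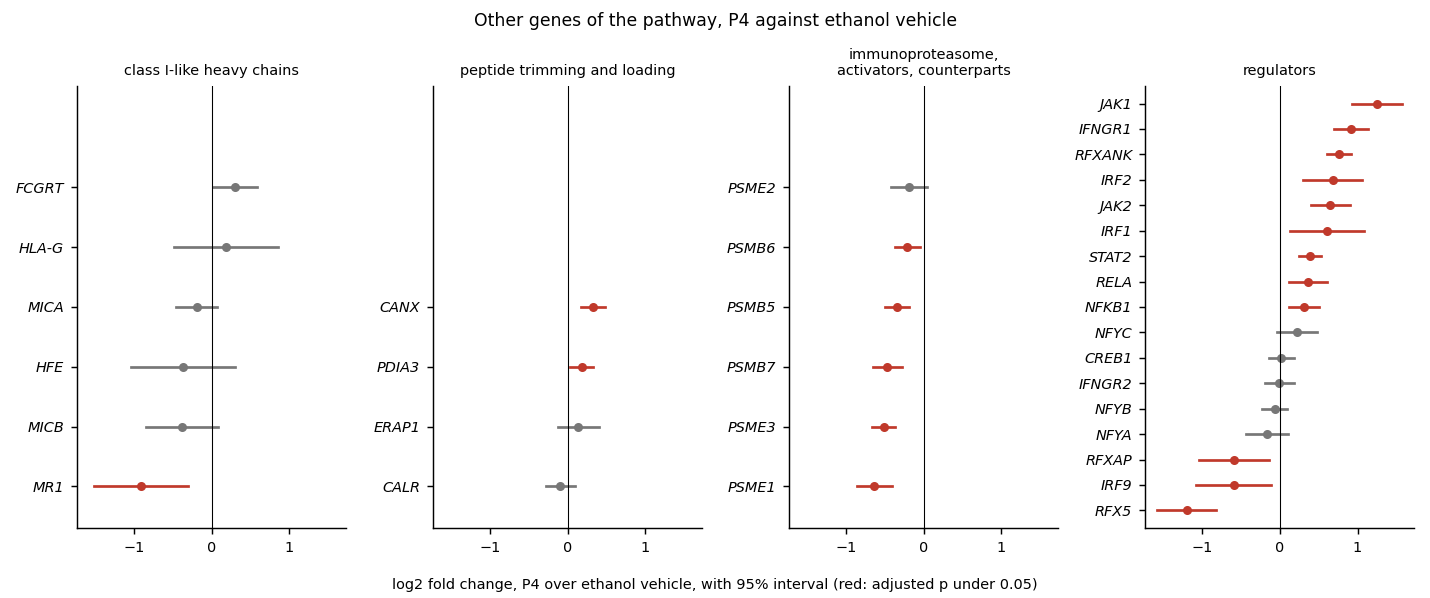
log2 fold change (points) with 95% intervals (lines) of the tested genes of 4 lists in P4 against the ethanol vehicle, red where the adjusted p was under 0.05. In the proteasome list 5 of 6 genes are red and below 0, and among the regulators 9 are red above and 3 red below 0, with RFX5 at -1.20 and JAK1 at 1.26.

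Counts of some members may include or lose reads of other genes, because the strand setting of the counting is not given in the sources used here and only unique alignments were counted. On GRCh38 (GENCODE 29), HLA-F lies at chr6:29722775-29738528 on the plus strand, and 28.5% of its exonic bases overlap other genes, among them the antisense gene HLA-F-AS1, at 1.57 to 4.79 CPM itself. HLA-B, on the minus strand, is annotated from 31269491 to 31357188, across HLA-C, and 18.9% of its exonic bases overlap other genes, mainly a pseudogene on the opposite strand, AL671883.2, with at most 3 counts in any library. HLA-C (31268749 to 31272130) shares 1.40% of its exonic bases with HLA-B. No exonic base of B2M (chr15:44711487-44718877, plus strand), HLA-E or TAPBP overlaps another gene. Of the 75-base windows of their transcripts, the read length used, 14.2% for HLA-B, 17.7% for HLA-F, 1.67% for HLA-E, 1.3% for HLA-C, 1.09% for TAPBP and none for B2M also occur in the transcripts of another gene. For the genes near 0 the shares were 7.96% for TAP1 (32845209 to 32853978), 30.8% for TAP2 (32821833 to 32838780) and 16.95% for PSMB8 (32840717 to 32844703), all on chromosome 6. Most of their windows thus had no exact match in annotated transcripts of other genes. Whether the windows were unique in the genome, and to the aligner, was not tested.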

How the data were processed

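RNA of 17 cultures was made into stranded total RNA libraries and read single-end at 75 bases. The authors clipped adapters (Cutadapt), removed poor reads (FASTX), mapped the rest with Subread, retained reads with 1 location only, and deposited raw counts per gene made with featureCounts on GENCODE 31. Tool versions and strand setting are not given in the sources used here. The study's own tests used DESeq2. All columns were matched to samples (0 left unused).

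For each comparison, the counts of its 2 groups were fitted with edgeR 4.0.16 (R 4.3.3; TMM, filterByExpr with a minimum of 10, robust quasi-likelihood), with Benjamini-Hochberg adjustment over all genes tested and a threshold of 0.05. The 95% intervals are those of single genes. Printed CPM were scaled by TMM over all 17 libraries, apart from the fits, and RPKM divide them by exon length. A count of 3, taken as the floor, is 0.152 to 0.600 CPM in single libraries. Symbols, positions and lengths came from GENCODE 29, in which 43963 of the 60662 genes, and among the members HLA-C, TAP1 and TAPBP, have the version counted. Symbols of 2064 other genes came from a list of gene names.

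The members and lists were chosen with earlier results of these data known. Named are all members, per list up to 4 called genes by size of change, genes whose exons overlap a member, the 5 genes most like the members' mean standardised log2(CPM + 1) by Pearson's r, and PGR, PSAT1 and HKDC1 for the labels. ERAP1, ERAP2, TAPBPL, PSMB6, PSMB9, PSMB10, IRF1, NLRC5 and the chromosome 6 neighbours were named after their values were seen. Of the genes first listed, 2 are not reported here and enter no list count. Alternatives were DESeq2 1.42.0, RLE or upper-quartile scaling, other filters, a joint fit of all samples, a replicate block, leaving out each replicate, group means for likeness and library totals for the order of levels. The principal transcript length, and library totals without scaling factors for fits and overlaps, were chosen after seeing the data. Replicates differed by more than sampling noise (chi-square per degree of freedom 1.48 to 18.3 over 16 pairs). On simulated counts for P4 and the ethanol vehicle (16479 genes, dispersion 0.01), 14%, 56%, 72% and 96% of genes changed 1.3-fold, 1.5-fold, 2-fold and 4-fold were called, 50 of each, with 5 unchanged genes. For P4 and the Nap vehicle (16722 genes) these were 8%, 44%, 84% and 96%, with 2 unchanged genes. The share of changed genes was far smaller there than the 53.0% and 49.7% called in the data. The common dispersion of the data was 0.00635 and 0.00855. The simulated rates are thus not the power of the fits reported. Python 3.11.15 with pandas 2.3.3 and matplotlib 3.10.9 made tables and figures.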

Additional observations from a re-analysis of the deposited data

How the results depend on the processing

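The number of members called depended on the processing in 6 of 8 comparisons. For P4 against the ethanol vehicle it was 1, and 0 with upper-quartile normalization, with 0 to 1 when each replicate was left out. With library totals and no scaling factors (chosen after seeing the data) it was 0 here, 0 for P4 against the Nap vehicle, 0 for P4 against the control, 0 for the set titled PSAT1 against the control and 1 (HLA-F) between both sets, so that none of the 7 called differences held. For P4 against the Nap vehicle it was 2, and 0 in DESeq2, 1 with upper-quartile normalization, 0 with the replicate block (which also left out P4 replicate 3) and 0 to 2 with replicates left out. For P4 against the control it was 1, and 0 in DESeq2, with upper-quartile normalization and with no filter, and 0 to 1 with replicates left out. For the ethanol vehicle against the control it was 0, and 1 with no filter, 1 with at least 10 counts in every sample, 2 with the replicate block (B2M and TAPBP) and 0 to 1 with replicates left out. For the set titled PSAT1 against the control it was 1, and 0 in DESeq2, with upper-quartile normalization and with no filter, 2 with all samples in 1 fit and 0 to 2 with replicates left out. Between both sets it was 2, and 1 to 4 with replicates left out. The cause of these moves was not tested.

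None of the 7 called differences changed sign in any alternative. Among the 48 differences tested, 18 changed sign in some alternative. HLA-B in the ethanol vehicle against the control was at -0.0225 in DESeq2, -0.0209 with no filter, -0.000776 with at least 10 counts and -0.0268 with the replicate block, and at -0.13 to 0.15 with replicates left out. HLA-E in that comparison was at 0.00136 with upper-quartile normalization and -0.0913 to 0.14 with replicates left out, and HLA-F at -0.25 to 0.0591. In the Nap vehicle HLA-E was at -0.0534 with the replicate block, a fit that also left out control replicate 3. With replicates left out HLA-E was at -0.0664 to 0.17, HLA-F at -0.15 to 0.20, B2M at -0.0956 to 0.0293 and TAPBP at -0.35 to 0.0588. In the set titled PSAT1 against the control, upper-quartile normalization gave -0.0624 for HLA-E and -0.0183 for B2M, and HLA-E was at -0.0498 to 0.19 with replicates left out. In the set titled PSAT1_P4 against the control, leaving out replicates gave -0.23 to 0.0437 for HLA-B, -0.0535 to 0.20 for HLA-C, -0.0584 to 0.18 for HLA-E, -0.0221 to 0.17 for HLA-F and -0.17 to 0.0253 for TAPBP. Between both sets HLA-E was at 0.0856 with upper-quartile normalization, 0.00847 with no filter, 0.0269 with at least 10 counts and -0.0844 to 0.0275 with replicates left out. Without scaling factors, HLA-E was at -0.0361 and B2M at -0.0442 in P4 against the Nap vehicle, B2M at -0.0325 in P4 against the control, HLA-B at -0.0108 in the ethanol vehicle, B2M at 0.0113 in the Nap vehicle, HLA-E at -0.116 and B2M at -0.0786 in the set titled PSAT1, and HLA-E at 0.188 between both sets.

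Samples with the same replicate number shared little beyond the number: the mean correlation of their deviations from the group means was between -0.0764 and 0.0609 in 7 comparisons and 0.376 over 2 pairs of Nap vehicle and control, so the block was not taken as a pairing. The block fits used only replicate numbers found in both groups. They therefore also left out P4 replicate 3 in P4 against the Nap vehicle, and control replicate 3 in the Nap vehicle against the control. With the block, the adjusted p in edgeR's test was 0.136 for HLA-B and 0.0639 for HLA-C in P4 against the Nap vehicle, and 0.0383 for B2M and 0.0433 for TAPBP in the ethanol vehicle against the control. The count of all genes called fell from 8446 to 5606 and 5502 for P4 against the Nap vehicle without Nap vehicle replicate 1 or 2, and from 3763 to 2038 and 1908 for the ethanol vehicle against the control without ethanol vehicle replicate 2 or 3. For the Nap vehicle against the control it rose from 0 to 48 with the block, a fit that also left out control replicate 3 (1 without that replicate alone). It was 3 with no filter, 1 each in DESeq2, with all samples in 1 fit and without scaling factors, and at most 5 with replicates left out. For the set titled PSAT1_P4 against the control it rose from 0 to 29 with the block, 14 with no filter and 5 without replicate 1 of that set. Depth limits TAP1, TAP2 and PSMB8 to statements about detection.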
